A study of Mus musculus with 25 samples.

Results

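Spermatogonia were sorted from the testes of 5 littermates, pooled at 7 days after birth, and profiled as single cells by Drop-seq, which counts transcripts by molecular tags (UMIs) in droplets. All barcodes with at least 200 UMIs in this library were taken as sorted spermatogonia, which kept 292 of 296 barcodes (the other 4 held 6 UMIs in all) of 44404 barcodes that passed the same minimum in 25 mouse testis libraries. The reference was 11 whole testis libraries of wild-type C57BL/6 males aged from 3 months 1 day to 9 months 14 days, with 25594 barcodes. The sorted cells came from males labelled Pouf51-EGFP on a C57BL/6 background, by enzymatic dissociation and a gate on live single GFP+ cells, where GFP is driven by Pou5f1 regulatory sequence and EGFP itself was not counted. Of the wild-type libraries, WT1 and WT2 were dissociated enzymatically and the other 9 mechanically. Side values are given from 6 mechanically dissociated whole testis libraries of Mlh3-/- males on a B6;129 background (B6.129 in the study's methods) aged from 2 months 21 days to 8 months 30 days, which lack a gene needed for meiotic crossing over, and from wild-type primary spermatocytes, secondary spermatocytes and spermatids sorted at 2 months 21 days after mechanical dissociation. Age, sorting, the reporter, pooling and, for 9 libraries, the dissociation all differed between the sorted library and the reference, so their effects cannot be told apart. Strain may differ too, since the study's methods give the reporter mice as a mixed B6;CBA stock. There is 1 sorted library, so no p-value is given, and the smallest 2-sided p that an exact permutation of 1 against 11 libraries can give is 0.0833.

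Spermatogonia are the mitotic germ cells that lie at the base of the seminiferous tubule. Undifferentiated spermatogonia keep the stem cell pool in response to glial cell line-derived neurotrophic factor from Sertoli cells, and retinoic acid drives their differentiation, when the receptor Kit and the meiotic gatekeeper Stra8 are switched on and Zbtb16 is lost. In the first week after birth the mouse tubule holds spermatogonia and Sertoli cells, and the meiotic and haploid germ cells that fill the adult tubule have not yet formed.

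The 292 sorted spermatogonia held 1168492 UMIs from 17485 genes. A cell held 575 to 25346 UMIs (median 2569.5) and 389 to 6187 genes (median 1701.5), 247 cells had at least 1000 UMIs, and 23 exceeded 10000. The wild-type libraries held 357147 to 3829103 UMIs, at a median per barcode of 403 to 1907. The study counts every deposited barcode of this library as a spermatogonium. A filter of the kind its methods describe, at least 50 genes and no more than 1 SD below the mean in UMIs or genes, would keep 244. The study also removed cells high in mt-Rnr2 and a group of shallow cells rich in mitochondrial transcripts, and these steps were not applied here. Mitochondrial transcripts made up 4.55% of the UMIs, against 0.403 to 1.72% in wild-type testis and 4.55 to 13.4% in the 6 Mlh3-/- libraries. In 60 cells they exceeded 10%, and those cells held a median of 978.5 UMIs, against 3567.5 in the rest. The library shared 6 barcodes with any of the other libraries, and 0 to 4 with each. The sort was not pure: 10 cells, described with the other groups below, carried a Sertoli profile.

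The label was checked against 4 markers, and each was higher in the sorted cells than in every wild-type library. Levels are given in CPM, the UMIs of a gene scaled by the total of its library, with an exact 95% Poisson interval that covers counting error only. Because levels are summed over cells, more cells of a type and more RNA per cell cannot be told apart. Zbtb16 (chr9:48654297-48836222, minus strand, GRCm38), the zinc-finger repressor of undifferentiated spermatogonia, had 263 UMIs or 225 CPM (199 to 254), against 0 to 2.35 CPM (median 0.894) in the wild-type libraries. Kit (chr5:75574916-75656722, plus strand), the receptor of differentiating spermatogonia, had 160 UMIs or 137 CPM (117 to 160), against 0 to 3.92 CPM (median 2.90). Both genes were far above the reference, although Zbtb16 and Kit mark successive states. Stra8 (chr6:34920163-34939344, plus strand), induced by retinoic acid, had 658 UMIs or 563 CPM (521 to 608), against 1.17 to 47.6 CPM (median 2.26). Hells (chr19:38930915-38971051, plus strand), a chromatin remodeller required for DNA methylation, had 1584 UMIs or 1356 CPM (1290 to 1424), against 12.3 to 33.6 CPM (median 16.5). The log2 ratio to the wild-type mean, with 10 CPM added to both, was 4.41 for Zbtb16, 3.54 for Kit, 4.89 for Stra8 and 5.56 for Hells. It remained between 3.57 and 4.49 for Zbtb16, 2.71 and 3.70 for Kit, 3.63 and 4.97 for Stra8, and 4.63 and 5.63 for Hells under other scalings, against the enzymatic libraries alone, and without the Sertoli-like cells and 2 cells rich in interstitial genes. These ranges leave out the settings with 1 or 50 CPM added. Those settings moved the medians of the undifferentiated, differentiating and broad gene lists below further than either other scaling did. Pou5f1, whose regulatory sequence drives the reporter, had 24 UMIs or 20.5 CPM (13.2 to 30.6), against 0 to 2.80 CPM.

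The DNA before the start of Stra8 and Hells holds letters known from the factors that act on such genes, and these windows are shown for that reason. Promoters of 300 bases (250 before the start and 50 after it, RefSeq, GRCm38.p6) were searched on both strands. Zbtb16 had no entry, and the Kit promoter held neither of the motifs described here. AGGTCA, the core of a retinoic acid receptor site, stood at 2 places before Stra8, from -194 to -189 and from -38 to -33, where 0 is the first transcribed base in RefSeq. TTTCCCGC, a form of the E2F site of DNA replication genes, stood from -62 to -55 before Hells. In the 30-base windows below, read on the gene's strand, capitals mark the match. All 3 windows overlap an untranslated exon of a longer GENCODE transcript of the same gene, exon 2 for Stra8 and exon 1 for Hells.
Stra8 (chr6:34920743-34920772): atggggtgaaaAGGTCAtcttgctccttcc
Stra8 (chr6:34920899-34920928): cctggggtaccAGGTCAgttttttacctga
Hells (chr19:38930917-38930946): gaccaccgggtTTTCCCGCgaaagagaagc
AGGTCA was found in 16.0% of 27018 promoters, and the E2F letters TTTCCCGC or TTTGGCGC in 1.63%. A match is a description of the sequence and not evidence of binding.

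Of 9996 genes with at least 20 UMIs in the sorted cells or a mean of 20 CPM in wild-type testis, 1996 (20%) were called higher and 1767 (17.7%) lower. A call means a difference of at least 4-fold on the scale with 10 CPM added, outside the range of all 11 wild-type libraries. A gene that passed only through its UMIs in the sorted cells has a wild-type mean below 20 CPM. With 10 CPM added, such a gene could not be called lower. The median log2 ratio of all genes tested was 0.82. Scaling by TMM brought this median to 0.05 and the calls to 703 higher and 2219 lower of 10048 genes tested, so that the higher share of calls went from 53.0% to 24.1%. DESeq2 size factors gave a median of 0.37 with 1086 higher and 1960 lower calls of 9990 genes tested (35.7% of calls higher). All 703 genes called higher under TMM were also called higher without it. This overlap was fixed in advance: the TMM factor was 1.85 for the sorted library and 0.907 to 1.06 for the wild-type libraries, so TMM could only remove higher calls. Higher calls were spread over cells: a called gene was detected in a median of 85 of the 292 cells, and 3 of 1996 had over 50% of their UMIs in 1 cell.

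**Figure D1:**
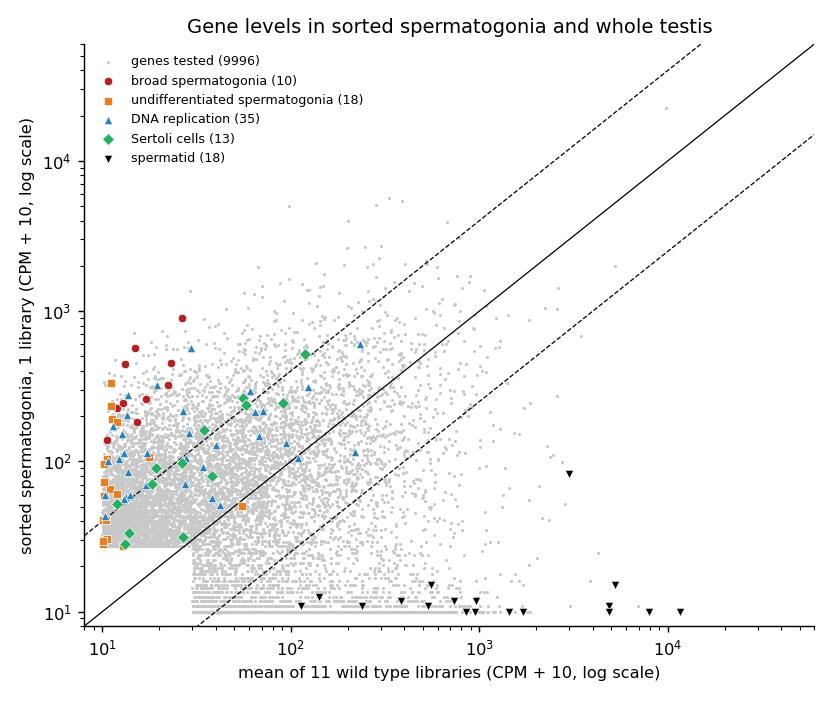
Level of each gene tested in the sorted spermatogonia (vertical axis) against its mean in 11 wild-type testis libraries (horizontal axis), both in CPM with 10 added on log axes, with dashed lines at 4-fold. Coloured symbols mark the tested genes of 5 lists: all 10 of the broad spermatogonia list lie above the upper line and all 18 spermatid genes below the lower one.

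The 15 genes with the largest log2 ratio included regulators of spermatogonia, chromatin proteins and genes of RNA and ribosome production. Ncl, which encodes the nucleolar protein nucleolin, had 5796 UMIs or 4960 CPM (4833 to 5090), against 45.4 to 288 CPM (median 66.7) in wild-type testis, a log2 ratio of 5.66. Zrsr2, an X-linked factor of the minor spliceosome, had 706 CPM against 3.26 to 8.40 (5.60). Hells followed (5.56), and Cdca7, which encodes a nucleosome-remodelling partner of Hells, had 377 CPM against 0 to 1.45 (5.16). Crabp1, the cellular retinoic acid-binding protein, had 464 CPM against 0 to 9.83 (5.35). Dmrt1, the transcription factor that holds spermatogonia in mitosis, had 557 CPM against 1.81 to 8.40 (5.25). These levels lay above all 11 wild-type libraries by a wide margin. The others were Tubb5 (5.16), a beta-tubulin, the splicing gene Scaf11 (5.11), the ubiquitin hydrolase gene Uchl1 (5.08), the microtubule gene Map7d2 (5.06), Gm26772 (5.06), Cenpa (5.02), which encodes the centromeric histone, Gm14513 (4.96), Wdr43 (4.96), which acts in ribosome production, and the mitochondrial chaperonin gene Hspe1 (4.96). Gm26772 was an exception in its spread, with 77.6% of its 384 UMIs in 1 of the 4 cells that held it.

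**Figure D2:**
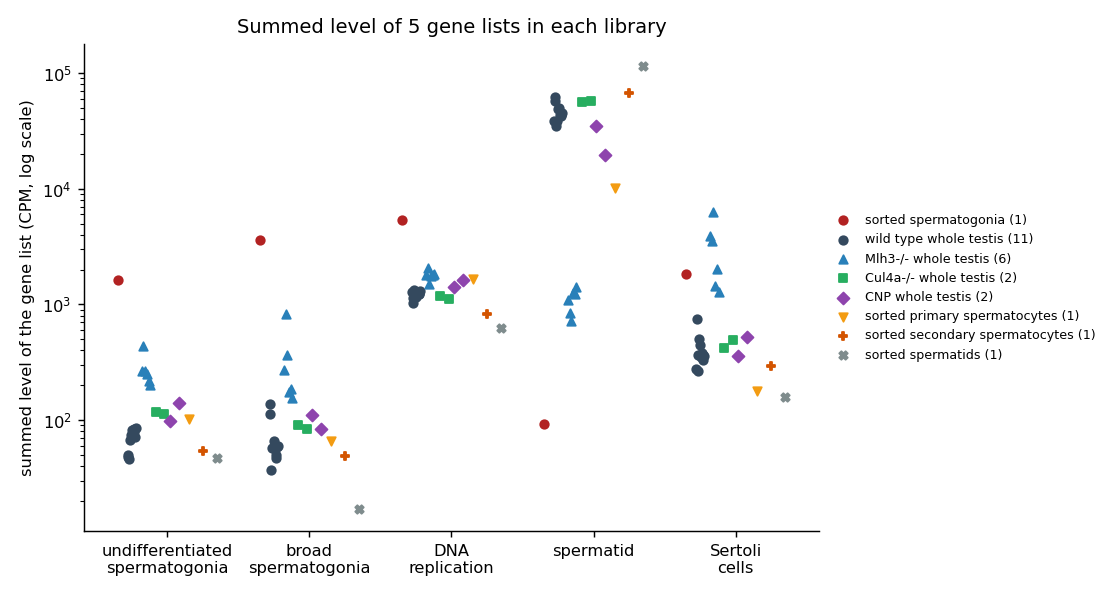
Summed level, in CPM on a log axis, of 5 gene lists in each library (1 point per library, by group, with the other libraries of the series beside those described here: Cul4a-/- on a B6;129 background at 1 month 18 and 21 days, and CNP, the label of the CNP eGFP BAC TRAP transgene on C57BL/6, at 2 months 14 and 16 days). The undifferentiated and broad spermatogonia lists are higher in the sorted spermatogonia than in any whole testis library, the spermatid list is lower, and the Sertoli list lies above the wild-type libraries and within the Mlh3-/- range.

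Among 25 markers of undifferentiated spermatogonia, 18 passed the filter on low counts, of which 12 were called higher and 0 lower, beside 20% and 17.7% over all genes tested. Most of the 18 passed only through their UMIs in the sorted cells, since the wild-type sum of the list is low. The count of 0 lower was thus largely fixed in advance, and the filter favoured genes high in the sorted cells. The list summed to 1630 CPM in the sorted cells, against 45.8 to 85.4 (median 75.1) in wild-type testis and 202 to 439 in Mlh3-/- testis (202 to 268 without its replicate 2). Its median log2 ratio was 1.97 over all 25 genes and 2.55 over those tested, beside 0.82 for all genes tested. Ccnd2, a cyclin of the early cell cycle, had 378 UMIs or 323 CPM (292 to 358), against 0 to 4.09 CPM, a log2 ratio of 4.92. Egr4, an early growth response factor, had 181 CPM against 0 to 3.87 (4.09), and Foxo1, a forkhead factor of stem cell maintenance, 173 CPM against 0 to 5.60 (3.93). Sall4, a zinc-finger factor that binds Zbtb16, had 93.3 CPM against 0 to 2.80 (3.29). Upp1 (3.25), Sox3 (2.83), Taf4b (2.59), Itga6 (2.58), Lin28a (2.53), Nanos3 (2.34) and Foxf1 (2.02) were also called higher. Gfra1 and Ret, the subunits of the receptor for the niche factor, had 20 and 23 UMIs, or 17.1 CPM against 0 to 5.22 and 19.7 CPM against 0 to 0.819, above all wild-type libraries but not called. Nanos2 had 3 UMIs and Etv5 had 8. Id4 had 47 UMIs or 40.2 CPM (29.6 to 53.5), within the wild-type range of 17.9 to 60.5. Under TMM 7 genes of the list were called higher, and under DESeq2 size factors 10.

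Of 14 genes of differentiating spermatogonia 11 were tested, of which 9 were called higher and 1 lower (6 and 1 under TMM, 7 and 1 under DESeq2 size factors), beside 20% and 17.7% over all genes tested, with a sum of 2038 CPM against 448 to 928 (median 860), and a median log2 ratio of 2.48 over all 14 and 3.54 over the 11 tested. Besides Crabp1, Stra8 and Kit, these were Sohlh1 (269 CPM against 0 to 3.16, log2 ratio 4.49), a helix-loop-helix factor of early differentiation, its partner Sohlh2 (2.42), Rhox13 (3.87), Dnmt3b (3.80), Rcor2 (2.5) and Nanos1 (2.45). Dmrtb1, which acts at the step from mitosis to meiosis, went the other way: 70 UMIs or 59.9 CPM (46.7 to 75.7), against 384 to 915 CPM (median 844), a log2 ratio of -3.48. Of 6 genes of intermediate and type B spermatogonia 5 were tested, of which 4 were called higher (3 under either other scaling): Zcwpw1 (554 CPM against 8.94 to 22.4, log2 ratio 4.51), the cyclin gene Ccnd1 (213 CPM against 0.777 to 5.36, 4.12), Tex13b (3.97) and the homeobox gene Esx1 (2.10). Zcwpw1 gave 647 of the 1260 UMIs of this list, and the paper places it in its leptotene component, not among its type B genes. All 10 matched genes of the broad spermatogonia list were called higher, under CPM and both other scalings, with a sum of 3635 CPM against 36.8 to 137 (median 58.8) and 156 to 828 in Mlh3-/- testis (156 to 366 without its replicate 2). The list includes Uchl1 (886 CPM against 6.21 to 42.0), Scml2 (442 CPM against 7.37 to 22.4), a Polycomb protein of the germline, and the factor gene Sox4 (236 CPM against 0.777 to 8.94). Its median log2 ratio was 4.25. In each list of this paragraph most tested genes were too low in wild-type testis to be called lower. The filter favoured genes high in the sorted cells there too.

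Genes shared by many germ cell stages differed among themselves. Of 15 germ cell identity genes, 14 were tested, of which 6 were called higher and 1 lower, beside 20% and 17.7% over all genes tested, and the median log2 ratio over all 15 was 1.19. Under TMM 3 were called higher and 2 lower, and under DESeq2 size factors 4 and 1. Dazl, which encodes a germline RNA-binding protein, had 2301 UMIs or 1969 CPM (1890 to 2051), against 28.7 to 85.4 CPM (median 59.0), a log2 ratio of 4.89. Ddx4, the germline helicase, had 394 CPM (359 to 431) and lay within the wild-type range of 276 to 515 CPM. Its log2 ratio of 0.07 went to -0.87 under TMM and -0.47 under DESeq2 size factors. Tex19.1 (4.65), a retrotransposon suppressor, Dnd1 (3.51), Dppa4 (2.57), Nanos3 (2.34) and Stk31 (2.20) were higher, and Gtsf1, a piRNA factor, was lower (192 CPM against 358 to 1047, -2.11).

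Genes of meiotic prophase were at mixed levels. Of 26 genes 20 were tested, and 4 of these were called higher and 1 lower, the higher share being that of all genes tested (20%, beside 17.7% called lower), with a median log2 ratio of 0.39 over all 26 that fell below 0 under both other scalings (-0.42 under TMM and -0.16 under DESeq2 size factors). Sycp1, of the transverse filament of the synaptonemal complex, had 1155 UMIs or 988 CPM (932 to 1047), against 141 to 322 CPM (2.06). Tex11 (201 CPM against 2.80 to 6.79, 3.79) and Tex12 (117 CPM against 0 to 23.3, 2.60) were also called higher. Spo11, which makes the meiotic breaks, was called lower, with 3 UMIs or 2.57 CPM against 19.6 to 84.6 CPM (-2.44), and the meiotic recombinase gene Dmc1 had 39 UMIs (1.60) and was not called. Meiob had 2 UMIs and Msh5 had 5. Of 14 genes of pachytene and the divisions, all tested, 11 were called lower and 0 higher, beside 17.7% and 20% over all genes tested, with a sum of 429 CPM against 11942 to 19169. Tbpl1 (133 UMIs), Aurka (87), Tdrd5 (79) and Clgn (66) held most of the 501 UMIs of this list, and Tdrd5 lay above the wild-type range (67.6 CPM against 9.83 to 52.8). All 18 spermatid genes were called lower, beside 17.7% over all genes tested, with 109 UMIs in all or 93.3 CPM against 34562 to 61854 CPM in wild-type testis and 720 to 1424 in Mlh3-/- testis. Of these 109 UMIs, 84 were from Odf2, a gene of the sperm tail and the centrosome, and 7 of the 18 genes had 0 UMIs.

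The 15 genes with the lowest log2 ratios were all genes of spermatocytes and spermatids. Prm2 and Prm1, the protamines that pack sperm DNA, had 0 UMIs in 292 cells. Against wild-type levels of 8484 to 15984 CPM for Prm2 and 3553 to 12588 CPM for Prm1, they were at least 4502-fold and 3078-fold lower, taking 3 UMIs or 2.57 CPM as the floor. Tnp2, of the transition proteins, was at least 1897-fold lower, and Tnp1 had 6 UMIs against 2341 to 9784 CPM. Ldhc, the testis lactate dehydrogenase, had 1 UMI against 3710 to 8217 CPM, a ratio of 8085-fold with a counting interval of 1451 to 319350. Smcp (1 UMI), Crisp2 (1), Meig1 (7), Fabp9 (17) and Pdcl2 (1) were the others with counts, and Gsg1, Hmgb4, Spz1, Oaz3 and Fhl4 had 0 UMIs and were at least 720-fold, 706-fold, 678-fold, 663-fold and 599-fold lower.

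Of 9 DNA methylation genes 6 were tested, of which 5 were called higher and 0 lower under all 3 scalings, beside 20% and 17.7% over all genes tested, with a sum of 2269 CPM against 71.2 to 143 CPM in wild-type testis and 218 to 619 in Mlh3-/- testis (218 to 306 without its replicate 2). Hells made up most of the sum in the sorted cells. Most of the 6 genes had a wild-type mean below 20 CPM and could not be called lower. Over all 9 genes the median log2 ratio was 3.08. The de novo methyltransferase genes Dnmt3a (293 UMIs, 251 CPM against 3.26 to 25.2, log2 ratio 3.93) and Dnmt3b (180 UMIs, 154 CPM against 0 to 4.47, 3.80) and the maintenance enzyme gene Dnmt1 (366 UMIs, 313 CPM against 5.73 to 17.1, 3.86) stood at similar ratios. Tet3, a dioxygenase that oxidises methylcytosine, had 78.7 CPM against 0 to 1.29 (3.08). Dnmt3l, the cofactor that is abundant in fetal prospermatogonia, had 7 UMIs or 5.99 CPM (2.41 to 12.3), against 5.73 to 22.4 CPM, and Tet1 and Tet2 had 4 and 8 UMIs. Uhrf1, which recruits Dnmt1, had 100 CPM against 20.6 to 42.2 (1.26), above all wild-type libraries and short of 4-fold.

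Of 35 genes of DNA replication, all tested, 21 were called higher and 0 lower, beside 20% and 17.7% over all genes tested, with a sum of 5343 CPM against 1022 to 1334 CPM and a median log2 ratio of 2.11. Under TMM 11 and under DESeq2 size factors 14 were called higher. The helicase subunit genes Mcm3 (268 CPM against 1.81 to 5.60, 4.35), Mcm2 (3.91), Mcm6 (3.91), Mcm4 (3.57) and Mcm5 (3.14), the ligase gene Lig1 (560 CPM against 14.3 to 25.2, 4.27) and the loading factor gene Cdt1 (89.9 CPM against 0 to 5.60, 3.21) were among them. Others of the same machine were nearer to whole testis, as Pcna (123 CPM against 39.2 to 109, 0.51), the sliding clamp, and Rpa1 (95.8 CPM against 57.2 to 140, -0.04). Of 22 genes of G2 and mitosis, all tested, 9 were called higher and 0 lower, beside the same shares, with a sum of 6959 CPM against 1638 to 2357 CPM. Under either other scaling 3 of the 22 were called higher, near the share over all genes under DESeq2 size factors (1086 of 9990). Mki67 (392 CPM against 10.6 to 39.2, 3.90) and the cyclin gene Ccna2 (193 CPM against 0.967 to 8.40, 3.98) had the largest ratios of this list, whereas Ccnb2 (133 CPM against 104 to 304, -0.82) and Plk1 (94.1 CPM against 53.2 to 122, -0.03), genes used by meiotic divisions too, lay within the wild-type range.

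E2F letters were common in the promoters of the replication list, and windows of 6 of the genes called higher are shown as examples, chosen after their values were seen, to let the sites be compared. Of 28 replication genes with a promoter in the table, 10 (35.7%) held TTTCCCGC or TTTGGCGC on either strand, in 12 matches that did not overlap. The share was 3.30% over the promoters of all genes tested, 5.06% over those called higher and 1.97% over those called lower. Of the 10 genes with a match 9 were called higher, the exception being the helicase subunit gene Mcm7 (1.34), and of the 18 without 10 were. The 30-base windows are read on the gene's strand with the match in capitals. GCGGGAAA and GCGCCAAA are the same letters read from the other strand. The Mcm3 and Cdt1 windows overlap an untranslated part of exon 1 of their gene in GENCODE, and the others overlap no exon of their gene.
Mcm3 (chr1:20820275-20820304): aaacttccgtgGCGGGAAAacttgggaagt
Mcm5 (chr8:75109349-75109378): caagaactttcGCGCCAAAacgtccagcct
Mcm6 (chr1:128359797-128359826): tggcgtatgctTTTGGCGCgaaaagtgcgt
Mcm6 (chr1:128359734-128359763): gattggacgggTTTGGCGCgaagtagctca
Cdc6 (chr11:98908002-98908031): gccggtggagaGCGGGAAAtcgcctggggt
Cdt1 (chr8:122568035-122568064): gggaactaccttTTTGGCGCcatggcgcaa
Pola1 (chrX:93632275-93632304): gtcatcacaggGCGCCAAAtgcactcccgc
The Mcm6 matches begin at -110 and -47. Promoters of genes called higher also held more CpG dinucleotides (median 23.0) than those called lower (10). The letters contain CpG, of which the replication promoters held a median of 22.5 and the promoters of all genes tested 21.

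Of 19 genes of the retinoic acid pathway, 12 were tested, of which 3 were called higher and 1 lower, near the shares over all genes tested (20% and 17.7%). The higher ones included the response gene Stra8 and the binding protein gene Crabp1. The receptor genes were at low counts: Rara had 41 UMIs or 35.1 CPM against 0.819 to 6.77 (1.64), and Rarg 34 UMIs or 29.1 CPM against 0 to 1.16 (1.90), both above all wild-type libraries and short of 4-fold on the scale with 10 CPM added. Rdh11, a retinol dehydrogenase gene, was called lower (17.1 CPM against 123 to 333, -3.30), and Aldh1a2, which makes retinoic acid in spermatocytes, had 22.3 CPM against 28.0 to 92.3 (-1.33). Aldh1a1, which makes it in Sertoli cells, had 71 UMIs, of which 68 lay in the 10 Sertoli-like cells. The degrading enzymes Cyp26a1 and Cyp26b1 had 12 UMIs each. In the list of 20 niche signalling genes 7 were tested, of which 4 were called higher, beside 20% over all genes tested: the receptor genes Kit, Igf1r (2.15), Bmpr1a (2.12) and Fgfr1 (2.03). Under TMM and under DESeq2 size factors 1 gene of the list was called higher. The list summed to 28.0 to 43.8 CPM in wild-type testis, so most of the 7 passed only through the sorted cells. Such genes could not be called lower, and the median log2 ratio over all 20 was 0.63. Among the ligand genes, Kitl, which encodes the Kit ligand, had 45 UMIs, 40 of them in the Sertoli-like cells, Cxcl12 had 16, Jag1 10, Fgf9 6, Bmp4 4 and Gdnf 2, and Fgf2 and Csf1 had 0.

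Of 22 piRNA pathway genes, which silence transposons with small RNAs, all tested, 6 were called higher and 3 lower, near the shares over all genes tested (20% and 17.7%), and the list's median log2 ratio of 0.73 went to -0.10 under TMM. Higher were Fkbp6 (663 UMIs, 567 CPM against 11.6 to 27.2, 4.42), a cochaperone, the helicase gene Mov10l1 (507 UMIs, 434 CPM against 14.0 to 44.7, 3.30), Tdrkh (2.49), Pnldc1 (2.45), Asz1 (2.27) and Piwil2 (140 CPM against 21.5 to 36.5, 2.02). Lower were Tdrd6 (1 UMI against 202 to 369 CPM, -4.88), Piwil1 (13 UMIs, 11.1 CPM against 59.9 to 201, -2.96) and Gtsf1 (-2.11). Piwil4, the nuclear PIWI of early germ cells, had 28 UMIs or 24.0 CPM (15.9 to 34.6), against 0 to 0.894 CPM in wild-type testis (1.75). Under TMM 2 genes of the list were called higher and 5 lower.

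Many genes of energy metabolism and the cytoskeleton have a testis-specific copy that is used in meiotic and haploid cells, so the share of UMIs on the widely expressed copy was computed for 17 pairs. Each pair is compared within 1 library, so no scaling enters. Ldha had 27 and Ldhc 1 UMI, so that 96.4% (exact 95% interval 81.7 to 99.9%) fell on Ldha, against 8.11 to 12.5% in wild-type testis. The same held for Cox6b1 and Cox6b2 (93.1%, 90.7 to 95.1%, against 2.19 to 6.82%) and for Cox8a and Cox8c (95.9%, 94.2 to 97.2%, against 0.308 to 2.63%), genes of cytochrome c oxidase. For Cetn2 and Cetn1, the centrins, it was 97.9% (94.7 to 99.4%) against 0.589 to 3.14%, and for the chaperone genes Hspa8 and Hspa2 92.4% (90.2 to 94.2%) against 1.55 to 4.07%. Sorted spermatogonia thus carried the widely expressed copy almost alone in these 5 pairs. Aldoa and Aldoart1 (99.5% against 40.3 to 49.8%), Ybx1 and Ybx2 (99.1% against 73.9 to 89.7%), Pabpc1 and Pabpc2 (100% of 2304 UMIs against 78.9 to 86.7%) and Utp14a and Utp14b (62.6% against 25 to 46.9%) also lay above the wild-type range.

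In 6 other pairs the testis copy held more UMIs than the widely expressed one in sorted spermatogonia. In 5 of these 6 the widely expressed member is X-linked, as it also is for Cetn2 and Utp14a above. Testis copies were counted in pairs above too, as Utp14b with 58 UMIs and Hspa2 with 54. Rpl10 gave 11.1% (6.61 to 17.2%), with 136 UMIs on Rpl10l, against 0 to 5.71% in wild-type testis. Rpl39 gave 17.7% (14.2 to 21.7%), with 348 UMIs on Rpl39l, against 0.0854 to 1.64%. Cox7b gave 46.9% (41.6 to 52.4%) beside Cox7b2, and Pdha1 46.4% (35.5 to 57.6%) beside Pdha2, against 1.38% and 1.85% at most. Slc25a5 gave 17.9% (14.8 to 21.3%), with 460 UMIs on the ADP/ATP carrier gene Slc25a31, inside the wild-type range of 0 to 44.3%, and Cycs gave 20.3% (13.5 to 28.7%) against 1.42 to 23.1%. Whether reads of these ribosomal and carrier genes were split among near-identical copies was not tested, and their shares are uncertain for that reason. Pgk1 with Pgk2 (4 and 2 UMIs) and Gapdh with Gapdhs (4 and 0) were too rarely counted to describe, and the 3.40 CPM median of Gapdh in wild-type testis shows that this gene was rarely counted there too. Of 15 glycolysis genes 11 were tested, of which 2 were called higher and 5 lower (0 and 5 under TMM, 1 and 5 under DESeq2 size factors), beside 20% and 17.7% over all genes tested, with a sum of 950 CPM against 2002 to 2462. Hk1, of hexokinase 1, was lower (38.5 CPM against 433 to 642, -3.49) and Hk2 higher (71.9 CPM against 1.64 to 6.52, 2.57). Tpi1 (-3.56), Pfkp (-2.25), Pfkm (-2.09) and Ldha (-4.47) were also lower. Ldhb (2.22) was the other gene called higher, with 156 of its 177 UMIs in the Sertoli-like cells.

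**Figure D3:**
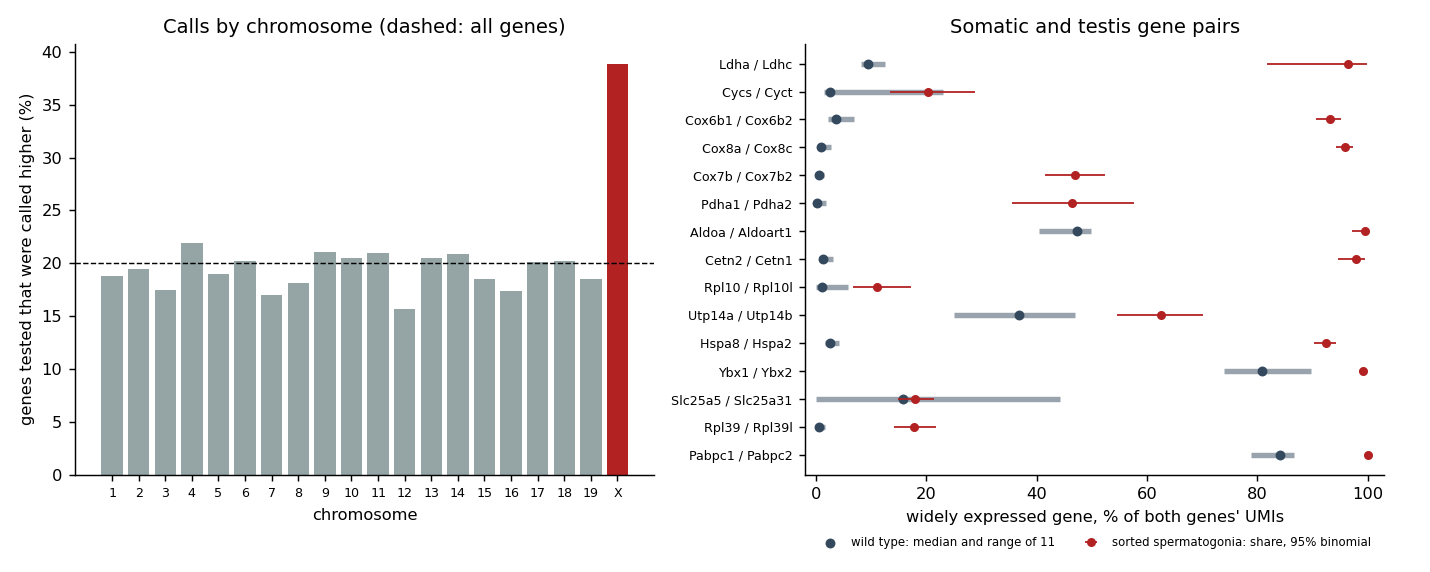
Left, percent of the genes tested on each chromosome that were called higher in sorted spermatogonia. Right, percent of UMIs on the widely expressed copy of each gene pair in the sorted spermatogonia (with the exact 95% interval) and in the wild-type libraries (median and range), for the 15 pairs with at least 20 UMIs in the sorted cells. The X chromosome stands at 38.8% against 15.7 to 21.9% on the autosomes, and pairs such as Cetn2 and Cetn1 lie near 100% in sorted spermatogonia and near 0 in whole testis.

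Genes on the X chromosome, which is silenced in spermatocytes, were examined apart, as a description with no test. X-linked genes gave 2.73% of nuclear UMIs, against 1.05 to 1.58% in wild-type testis, 0.444 to 1.86% in Mlh3-/- testis and 0.420% in sorted primary spermatocytes. Of 356 X-linked genes tested 138 (38.8%) were called higher, against 1837 of 9477 (19.4%) on the autosomes, where single chromosomes gave between 15.7% (chromosome 12) and 21.9% (chromosome 4). Under TMM these shares were 16.4% and 6.66%, under DESeq2 size factors 23.4% and 10.5%, and against the enzymatic libraries alone 34.2% and 21.2%. Without the Sertoli-like cells and the 2 cells richest in interstitial genes they were 40.3% and 19.8%. Besides Zrsr2, Map7d2, Scml2 and Rhox13, the genes Taf7l (1186 UMIs, 1015 CPM against 24.6 to 67.2), a germline subunit of a general transcription factor, and Atrx (583 UMIs, 499 CPM against 1.55 to 11.2), a chromatin remodeller, were chosen as examples after their values were seen. On the Y chromosome, Eif2s3y, a translation factor gene needed for spermatogonial proliferation, had 175 UMIs or 150 CPM (128 to 174), against 38.5 to 72.8 CPM (1.37), and Ddx3y (2.19) and Usp9y (2.06) were called higher.

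The markers were then counted cell by cell. To set depth aside, the 247 cells with at least 1000 UMIs were thinned to 1000 UMIs each, and wild-type barcodes likewise. Hells was detected in 71.3% of cells (exact binomial 95% interval 65.2 to 76.8%), Stra8 in 27.9% (22.4 to 34.0%), Zbtb16 in 20.2% (15.4 to 25.8%) and Kit in 17.4% (12.9 to 22.7%). In wild-type testis the medians over libraries were 1.33%, 0.340%, 0% and 0.182%. Dazl was detected in 85.8%, Uchl1 in 55.9% and Crabp1 in 34.0%. Among the Sertoli-like cells, 0 of 9 at the same depth held a UMI of any of the 4 markers, which allows a share of up to 33.3% with 3 cells as the floor. Of these 9 cells, 1 held a UMI of Dazl and 1 of Uchl1. Without thinning, at a median of 3079.5 UMIs, Hells was found in 2, Kit in 1, Dazl in 5, Uchl1 in 3 and Crabp1 in 2 of the 10 Sertoli-like cells. Dmrt1, which Sertoli cells also express, was in 45.7% of all cells and in 4 of 9 Sertoli-like cells. Without thinning the shares were 83.2% for Hells, 40.4% for Stra8, 43.8% for Zbtb16 and 33.9% for Kit, and 274 of 292 cells held a UMI of at least 1 of the 4. Prm1, Prm2 and Tnp1 were in 0 of 247 thinned cells, against 68.2%, 80.2% and 63.7% as wild-type medians. With 3 cells as the floor, a count of 0 allows up to 1.21% of cells with a UMI at that depth (exact 95% limit 1.48%). Without thinning Prm1 and Prm2 were in 0 of 292 cells and Tnp1 in 6 (2.05%). At full depth 43 cells held UMIs of both Zbtb16 and Kit, 85 of Zbtb16 only, 56 of Kit only and 108 of neither. These counts do not show co-expression, since doublets were not called, free RNA can add a UMI, and a cell without a UMI may still express the gene.

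**Figure D4:**
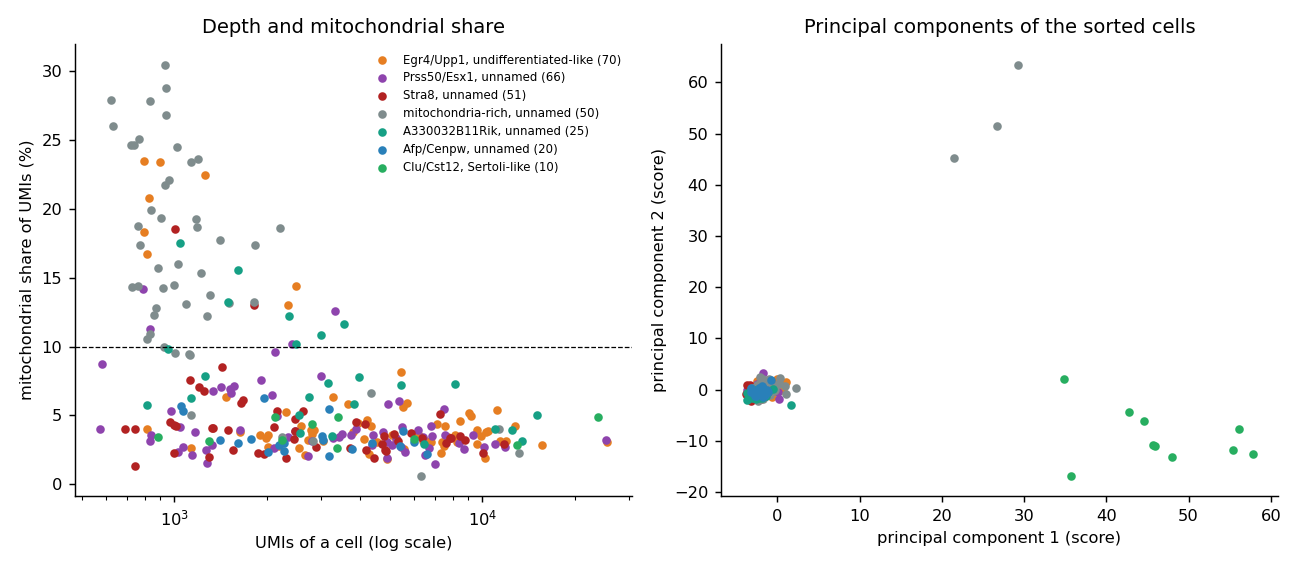
Each point is 1 of the 292 sorted cells, coloured by group in the order 1 to 7 of the legend, which names leading genes. Left, UMIs per cell (log axis) against percent mitochondrial UMIs, right, the first principal components. Group 4 holds most cells above 10% mitochondrial UMIs, and the 10 Sertoli-like cells of group 7 and 3 cells of group 4 lie apart from the others.

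Clustering placed the cells in 7 groups. The same genes define and describe the groups, so their differences are a description with no test, and named groups are called by markers only. Group 1, with 70 cells (24.0%), was like undifferentiated spermatogonia: of the 25 markers 18 were at least 2-fold above the other cells, and the list summed to 3047 CPM against 917. Its leading genes were Egr4 (181 of 212 UMIs), Upp1 (89 of 101), Nefm, Ddit4, Pla2g7, Zfp462, Foxf1, Id4, 2010111I01Rik and Ccdc141. Several markers with few UMIs fell mostly here, with 20 of 23 UMIs of Ret, 45 of 59 of Nanos3, 41 of 57 of Lin28a, 40 of 47 of Id4 and 12 of 20 of Gfra1. Zbtb16 stood at 388 CPM (329 to 455) and Kit at 53.7 CPM (33.2 to 82.0). Group 1 was also the deepest, at a median of 4725 UMIs per cell, which aids the detection of rare transcripts.

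Group 2, with 66 cells (22.6%), had the opposite balance and was left unnamed, since its leading genes belong to several classes. Prss50, Esx1, Gm1564, Ly6k, Rhox13 and Dmrtb1 led it beside Gm26772 and Upb1, whose UMIs came from 2 and 5 of its cells. The undifferentiated list summed to 353 CPM against 2028 in the other cells, with Zbtb16 at 46.8 CPM (24.9 to 80.1) and 0 of 101 UMIs of Upp1. The type B list summed to 1592 CPM against 918, meiotic prophase genes to 5905 against 3364, and G2 and mitosis genes to 10534 against 5846. Over all cells, Zcwpw1, which the paper places in its leptotene component, gave 647 of the 1260 UMIs of the type B list. Dmrtb1, low in the library as a whole, had 46 of its 70 UMIs here. Sycp1 was at 1636 CPM (1488 to 1793) and Top2a, a topoisomerase of dividing cells, at 1459 CPM (1320 to 1608), against 685 and 578 CPM in group 1.

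Group 3, with 51 cells (17.5%), was led by Stra8 among the listed genes and left unnamed, since Stra8 was the only listed marker among its 10 leading genes. Groups 2 and 5 came as close to the differentiating list: 3 of its 14 markers were at least 2-fold above the other cells in group 3 and in group 2, and the mean log2 fold over its detected markers was 0.49 in group 3 and 0.53 in group 5. Stra8 stood at 1325 CPM (1162 to 1504) against 425 in the other cells, Kit at 267 CPM (197 to 354) and Crabp1 at 863 CPM (732 to 1010), the differentiating list summed to 3401 CPM against 1790, and the retinoic acid list to 2522 against 1113. Some of its leading genes (Lzts1, B230312C02Rik and Irgm1) had their UMIs in 2 to 4 cells. Group 4, with 50 cells (17.1%), was shallow (median 1003.5 UMIs) and rich in mitochondrial transcripts (median 15.5%, 39 cells above 10%), and carried Stra8 at 990 CPM (791 to 1218) and Zbtb16 at 350 CPM (236 to 499). Its leading genes Dcn, Col1a2 and Col3a1, of connective tissue, came from few cells: 2 cells held 129 of the 191 interstitial UMIs of the library and 0 UMIs of Dazl, Uchl1, Dmrt1, Ddx4 or Hells. Another cell of group 4, with 9 interstitial UMIs, lay beside them on the principal components. Groups 5 and 6, with 25 and 20 cells, were led by A330032B11Rik, with its 51 UMIs in 2 cells, and Afp, with 20 UMIs in 10 cells, and left unnamed. Kit was at 229 CPM (149 to 335) in group 5 and 16.2 CPM (0.410 to 90.3) in group 6, and Zbtb16 at 211 and 275 CPM. Hells was between 992 and 1815 CPM in groups 1 to 6 and at 102 CPM in the Sertoli-like group 7. Groups 1, 2 and 7 returned under a lower resolution (98.6%, 100% and 100% of their cells together) and with 10 principal components (84.3%, 95.5% and 100%), while groups 3 to 6 merged at the lower resolution and group 3 kept 62.7% of its cells together with 10 principal components. Among cells with at least 1000 UMIs, groups 1 and 7 kept 82.8% and 100% together, but group 2 only 50.8% (30 of 59 cells).

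**Figure D5:**
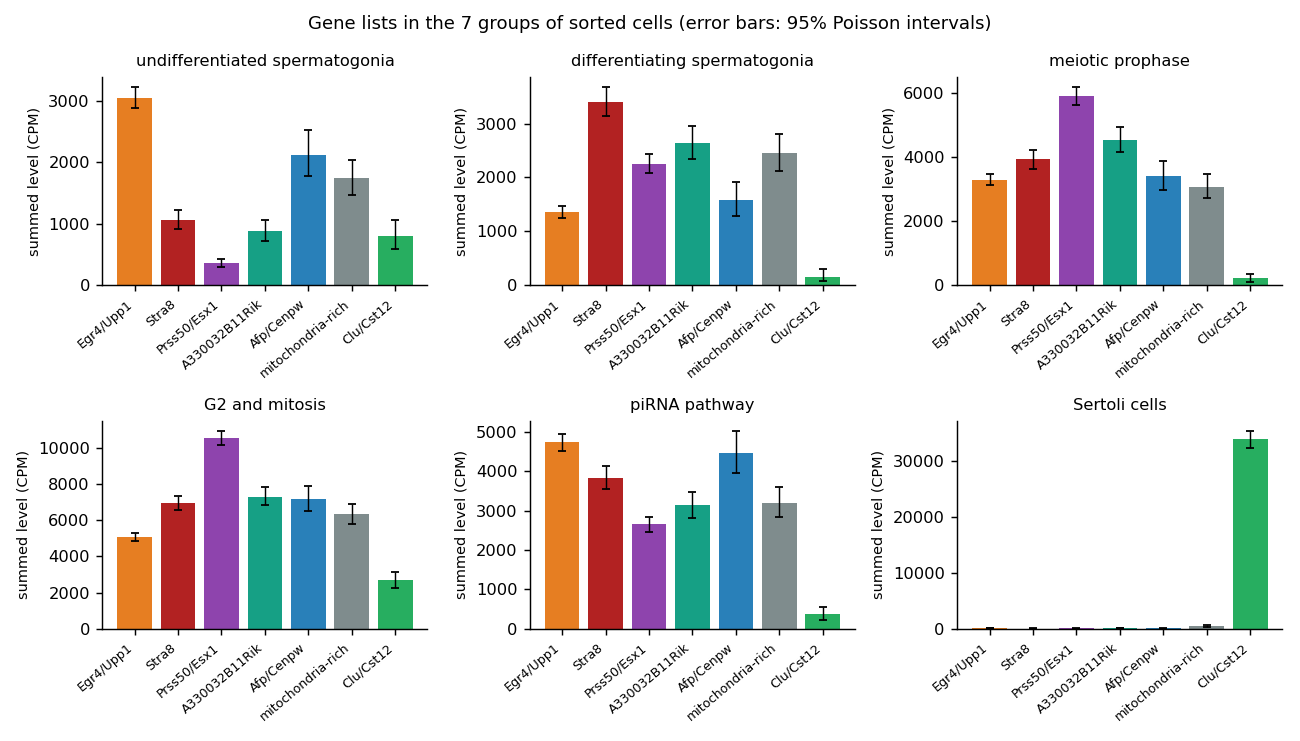
Summed level, in CPM, of 6 gene lists in each of the 7 groups of sorted cells (bars, named by leading genes as in the plot of single cells), with exact Poisson 95% intervals of the summed UMIs. The undifferentiated list is at 3047 CPM in group 1 and 353 CPM in group 2, the G2 and mitosis list is at 10534 CPM in group 2, and the Sertoli list is at 33840 CPM in group 7.

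Group 7 held 10 cells, 3.43% (1.65 to 6.21%) of all, with 5.04% of the UMIs, and was led by Sertoli genes: Clu, Cst12, Cst9, Defb19, Aard, Cpe, Inha, Gstm1, Wfdc10 and Gstm2. These cells held 1992 of the 2124 UMIs (93.8%) of the Sertoli list, 33840 CPM against 119 in the others, and 198 of the other 282 cells held none. Dazl was at 136 CPM (58.7 to 268) against 1779 CPM or more in groups 1 to 6. Of 20 listed Sertoli genes 13 were tested in the summed library, of which 6 were called higher than whole testis (Clu 2.13, Aard 2.24, Basp1 2.22, Ldhb 2.22, Sox9 2.12 and Cst12 2.04), beside 20% over all genes tested, and 0 under either other scaling. Without the 10 cells the log2 ratio of Clu was -2.65 and the list's median -1.39. That median rests on fewer genes, since the filter was applied again without these cells. When the 2 interstitial cells were left out too, 6 genes were tested, with a median of -1.65. Over all 18 matched genes the median was then -0.36, against 1.35 with every cell. The Sertoli sum of 1818 CPM lay above the wild-type range (266 to 754) and within the Mlh3-/- range (1273 to 6342). Other somatic lists were low: Leydig genes summed to 18.0 CPM with Cyp11a1, Hsd3b1 and Ptgds at 0 (wild-type 0 to 363), macrophage genes to 5.13 CPM with 5 of 9 at 0 (14.0 to 40.6), T cell genes to 2.57 CPM with 5 of 7 at 0 (10.5 to 37.7) and erythroid genes to 1.71 CPM with 3 of 5 at 0 (0 to 88.7). Endothelial genes summed to 58.2 CPM (8.62 to 25.2), peritubular myoid genes to 54.8 (16.7 to 28.3) and interstitial genes to 163 (8.40 to 112), each above the wild-type libraries. Single genes made up most of the endothelial and myoid sums: Egfl7 gave 48 of 68 endothelial UMIs, in 41 cells, beside 2 of Pecam1, 3 of Cdh5 and 0 of Esam and Cldn5, and Mylk gave 46 of 64 myoid UMIs. Without the Sertoli-like cells and the 2 interstitial ones, 1987 genes were called higher and 1794 lower, 1930 and 1753 of them as before.

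Immediate early genes respond within minutes to stimulation or handling. Of 19 immediate early and heat shock genes 14 were tested, of which 7 were called higher and 1 lower (5 and 1 under either other scaling), beside 20% and 17.7% over all genes tested, with a sum of 1287 CPM against 330 to 547. Egr1 (192 CPM against 0 to 8.04, 4.06), Fos (134 CPM against 0 to 3.58, 3.73), Btg2 (3.30), Jun (150 CPM against 4.51 to 10.2, 3.23), Ier2 (2.95), Junb (2.19) and Jund (2.12) were higher, and the heat shock gene Dnajb1 was lower (65.9 CPM against 179 to 399, -2.13). Fosb, Dusp1, Nr4a1, Zfp36, Hspa1a and Hsph1 were tested and not called. The Sertoli-like cells held 67 of 156 UMIs of Fos and 79 of 224 of Egr1, and 5 cells of group 4 held 44 more of Fos. The list stood at 7407 CPM in the Sertoli-like cells against 962 in the others. Without the Sertoli-like cells and the 2 interstitial cells 5 of the 19 were called higher. Against the enzymatic libraries alone 6 were higher and 0 lower. Enzymatic digestion was shared only with WT1 and WT2, and its part in these levels was not tested.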

How the data were processed

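Drop-seq UMI counts per gene and barcode were used as the authors deposited them, for 25 libraries. Per the study's methods and the submitters' processing notes, reads were demultiplexed with bcl2fastq, processed with the Drop-seq tools, aligned with STAR 2.5.3a to mm10 and counted on GRCm38 gene annotation. Genes without a row in a library were counted as 0. Library depths, which set the precision of every value, are given with the results. Intervals are exact at 95% and cover counting error only.

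UMIs of barcodes with at least 200 UMIs were summed per library, and log2 ratios to the mean of 11 wild-type libraries were taken with 10 CPM added. Calls used a fixed rule of size in place of a test. Fold bounds used a floor of 3 UMIs. Cells were clustered on the square root of their UMI fractions (15 principal components of 2000 variable genes, 15 neighbours, Leiden at resolution 1, igraph 0.11.9, leidenalg 0.10.2, scipy 1.17.1). No doublet caller was run on these gated single cells. TMM factors came from edgeR 4.0.16 and size factors from DESeq2 1.42.0. Of 29244 gene symbols, 26843 matched GENCODE vM21 directly and 883 more through RefSeq synonyms. Of 363 gene list entries, on 342 different symbols, 339 symbols were found. Genes were named if in these lists, among the 15 highest (50 UMIs) or lowest (50 CPM) ratios, among 10 leading genes of a group, or in a pair of widely expressed and testis copies. The sex-linked examples Taf7l, Atrx, Eif2s3y, Ddx3y and Usp9y were named outside this rule. The cells, gene lists and tests were chosen with earlier results of these data known. The label gives the background of the reporter mice as C57BL/6 and the methods as a mixed B6;CBA stock. Some genes of the lists are counted but not reported here by name.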

Additional observations from a re-analysis of the deposited data

Results flagged for a closer look

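In the 6 Mlh3-/- whole testis libraries that serve as a side reference, replicate 2 stood apart in both summed spermatogonial lists. The broad spermatogonia list summed to 828 CPM in it, where the 6 libraries had a median of 227 CPM and the sorted spermatogonia 3635 CPM. The undifferentiated list summed to 439 CPM in it, with a median of 260 CPM over the 6 and 1630 CPM in the sorted spermatogonia. Its gap to the nearest library was 0.687 and 0.722 of the range of the group, above Dixon's 95% critical value for 6 samples. Both ends of 6 measures were searched, 12 gaps in all, and chance alone flags about 1 in 20 groups for each measure. Both lists come from the same library. It sets the upper end of both Mlh3-/- ranges, which without it are 268 CPM for the undifferentiated list and 366 CPM for the broad list.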

How the results depend on the processing

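Of the genes and lists recomputed, 6 changed sign in some setting. Clu had a log2 ratio of -2.65 without the Sertoli-like cells, also when the 2 interstitial cells were left out too, and the Sertoli list turned with it. Over the genes tested, the median of the meiotic prophase list (0.22) was -0.67 under TMM and -0.29 under DESeq2, that of the piRNA list (0.73) -0.10 under TMM, and that of the glycolysis list (0.20) between -0.64 and -0.11 in 5 settings, while Ddx4 turned under both scalings. In each sentence below the cause of a shift was not tested. Genes called higher (1996) numbered 3626 with 1 CPM added, 402 with 50, 703 under TMM, 1086 under DESeq2 size factors, 1227 with a filter of 100 and 4601 at 2-fold, and genes called lower (1767) numbered 733 with 50 CPM added, 1100 with a filter of 100 and 2716 at 2-fold. The median log2 ratio of the undifferentiated list (2.55) was 4.88 and 1.01 with 1 and 50 CPM added, 1.81 under TMM, 2.08 under DESeq2, 2.51 without the Sertoli-like cells, 2.52 without the interstitial cells too and 1.97 with no filter. That of the differentiating list (3.54) was 5.26, 1.83, 2.71 and 3.02 in the same first 4 settings and 2.48 with no filter. That of the broad list (4.25) was 5.80, 2.49, 3.39 and 3.70, and 3.85 against the enzymatic libraries. That of the spermatid list (-6.38) was -9.08 and -4.29 with 1 and 50 CPM added and -6.52 under TMM. That of the Sertoli list (1.94) was 2.32, 1.06, 1.14 and 1.47 in the 4 settings, 1.61 against the enzymatic libraries, -1.39 without the Sertoli-like cells, -1.65 without the interstitial cells too and 1.35 with no filter. The values without cells rest on fewer tested genes (6 for -1.65), and over all 18 matched genes -1.65 became -0.36. Leaving out each wild-type library in turn gave 1982 to 2008 higher and 1755 to 1774 lower calls, and medians of 2.54 to 2.56, 3.51 to 3.56, 4.23 to 4.29, -6.42 to -6.35 and 1.91 to 2.03 for these 5 lists. Shares of cells thinned to 500 UMIs, to 2000 UMIs and not thinned were 9.59, 34.3 and 43.8% for Zbtb16, 7.88, 23.6 and 33.9% for Kit, 16.8, 37.1 and 40.4% for Stra8 and 47.3, 85.4 and 83.2% for Hells. At a resolution of 0.5 the cells fell into 4 groups. No paired analysis was possible because the sorted spermatogonia are 1 library whose number pairs it with no other. Depth limits genes under about 20 UMIs, such as Nanos2 and Etv5, and cells with under 1000 UMIs.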
